A study of Mus musculus with 10 samples.

Results

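The peroxiredoxins and the mitochondrial thioredoxin system were followed as 10 genes chosen by name: the 6 peroxiredoxins Prdx1 to Prdx6, the mitochondrial thioredoxin Txn2, its reductase Txnrd2, the thioredoxin-binding protein Txnip and the cytosolic glutaredoxin Glrx. All 10 of them were found among 32903 genes, by summing the transcripts that carry each symbol. The cells were preadipocytes, the precursors of fat cells, from inguinal subcutaneous fat (iSAT) of male WT C57 BL6 mice. One group of 5 libraries was from DMSO vehicle cultures, and the other group of 5 was from cultures exposed to 2.5 µM BPS (bisphenol S, used in place of bisphenol A) dissolved in DMSO. The series title asks about reactive oxygen species in the adipogenic action of bisphenols. How long the cells were exposed, and whether replicates were separate animals or dishes, is not given in the sources used here, so p-values measure the spread between these libraries, which may be technical.

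Peroxiredoxins are thiol enzymes that reduce hydrogen peroxide and organic peroxides. Most of them are then reduced by a thioredoxin, which is itself reduced by a thioredoxin reductase at the expense of NADPH. Prdx1, Prdx2 and Prdx6 act mainly in the cytosol, Prdx4 in the endoplasmic reticulum, Prdx3 in mitochondria, and Prdx5 in mitochondria, peroxisomes and cytosol. Txn2 and the selenoprotein Txnrd2 serve the mitochondrial enzymes, Txnip binds thioredoxin and lowers glucose uptake, and Glrx removes glutathione from protein thiols. In fat tissue these systems handle the peroxide that respiration and oxidases release. By GENCODE M21 (GRCm38), Prdx1 lies at chr4:116685544-116700822, Prdx2 at chr8:84969587-84974834, Prdx3 at chr19:60864051-60874556, Prdx4 at chrX:155323918-155340754, Prdx5 at chr19:6906697-6910106 and Prdx6 at chr1:161240112-161251219. Txn2 lies at chr15:77915047-77929006, Txnrd2 at chr16:18426384-18479073, Txnip at chr3:96557957-96561883 and Glrx at chr13:75839868-75850154.

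Libraries held 37920689 to 42717227 estimated counts each, without a detectable difference between groups (exact two-sided permutation test, p = 0.452). BPS replicate 1 stood furthest from its group: the chi-square of counts per degree of freedom was 5.1 to 8.77 in its pairs and 4.13 to 5.7 in all other pairs of replicates. All 12 preadipocyte markers were detected, with summed levels of 24200 to 25900 CPM in DMSO and 23400 to 26300 CPM in BPS, where CPM is assigned counts scaled to a common library size. Of these 12, Cd34 and Thy1 rose and none fell. The adipocyte genes Adipoq, Cidec, Lep and Retn had at most 3 counts in every library. The erythroid genes Hba-a1, Hba-a2, Hbb-bs and Hbb-bt, of a lineage rich in Prdx2, also had at most 3 counts in every library. No macrophage or endothelial marker was called, and their summed levels overlapped between groups (macrophage 11.4 to 17.8 CPM in DMSO and 12.2 to 20.3 CPM in BPS, endothelial 17.6 to 23 and 17 to 22.9 CPM). Of 6 mural cell markers, 2 rose (Cspg4 and Mcam), and their summed level was 77.7 to 82.6 CPM in DMSO and 85.1 to 98.6 CPM in BPS, with none of the 6 at 0. Of 5 mesothelial markers, Krt19 rose while Msln and Upk3b had at most 3 counts, with sums of 9.06 to 11 CPM in DMSO and 11 to 12.9 CPM in BPS. The part of these cell types in the results below was not tested. In bulk RNA, fewer cells of a type and less RNA per cell cannot be told apart.

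None of the 10 genes passed the threshold between BPS and DMSO, and none of their fitted differences exceeded 5.3% in either direction. A gene passed when the Benjamini-Hochberg adjusted p of edgeR's quasi-likelihood test was below 0.05 over 14597 tested genes. All 10 genes passed the filter on low counts. Across all tested genes 4.88% were called (3.06% higher and 1.82% lower under BPS), so a count of 0 in 10 is near that background. At an unadjusted p under 0.05 there were 2, Prdx6 and Txn2, while 1 (Prdx6) was called by the DESeq2 Wald test and 0 by limma-voom. The log2 fold change was above 0 in 8 genes and below 0 in 2, with a median of 0.009 in the 10 genes and 0.0 in all tested genes. The median absolute log2 fold change was 0.021 in the 10 genes and 0.056 in all tested genes. All tested genes also include genes with few counts, and the sets were not matched for level. For 9 of the 10 genes the 95% interval of the difference, unadjusted, lay wholly within 10% of no change.

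**Figure D1:**
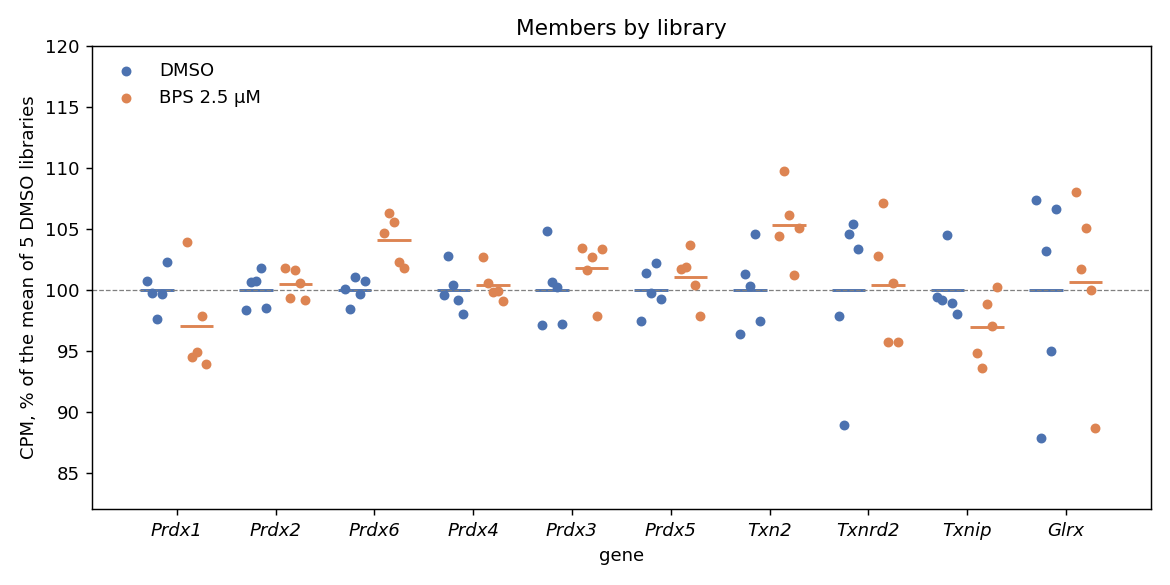
Level of each of the 10 genes in each library, as CPM in percent of the mean of the 5 DMSO libraries (vertical axis), with 1 point per library and a bar at the mean of 5 (blue DMSO, orange BPS). The Prdx6 points of BPS lie above those of DMSO, and in the other 9 genes the groups overlap.

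Prdx1, the abundant cytosolic peroxiredoxin and a classic target of the antioxidant factor NRF2, had the highest level per transcript length. Its level was 652.8, 646.6, 632.9, 646.0 and 662.9 CPM in DMSO replicates 1 to 5. In BPS replicates 1 to 5 it was 673.8, 612.3, 615.4, 634.4 and 608.7 CPM. BPS replicate 1 was the highest of all 10 libraries, whereas 3 of the other 4 BPS libraries lay below every DMSO library. BPS and DMSO differed by -0.044 on the log2 scale (SE 0.027, interval -0.101 to 0.014), with an adjusted p of 0.425 by edgeR. Of its 31-base words 17.8% recur in other genes on the same strand (Gm21399, Gm7204 and Gm15974), so reads from these copies cannot be fully told apart. No assigned transcript carried the name of any of these copies, so they had no counts of their own. Without BPS replicate 1 the log2 difference of Prdx1 was -0.0696 and passed the threshold (adjusted p = 0.0474 by edgeR).

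The 250 bases before the Prdx1 start are shown because they hold letters of 2 redox-linked motifs, at chr4:116685349-116685598 on the plus strand (RefSeq, GRCm38.p6). Capitals mark matches to the AP-1 site TGACTCA and to the core of the antioxidant response element, TGACNNNGC, each searched on both strands.
Prdx1: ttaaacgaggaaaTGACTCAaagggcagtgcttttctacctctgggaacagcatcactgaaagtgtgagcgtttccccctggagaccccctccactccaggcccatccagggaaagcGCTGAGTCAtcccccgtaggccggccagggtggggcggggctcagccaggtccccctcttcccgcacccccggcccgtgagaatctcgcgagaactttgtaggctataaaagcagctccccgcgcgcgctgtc
The second stretch of capitals, 133 to 125 bases before the start, matches both motifs, which overlap there. In the 250 bases before 32851 RefSeq starts, 4.463% held the AP-1 letters and 10.161% the antioxidant core. Of the 9 followed genes with a sequence in the table, 2 (Prdx1 and Glrx) held the AP-1 letters and 1 (Prdx1) held the antioxidant core. These are matches of letters and not shown to be sites.

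Prdx2, the cytosolic enzyme best known from red cells, showed no difference beyond its spread. Its level was 213.1, 218.0, 218.3, 220.6 and 213.4 CPM in DMSO and 220.5, 215.2, 220.2, 217.9 and 214.9 CPM in BPS, in order of replicate. All 5 BPS values fell within the DMSO range. The log2 fold change was 0.007 (SE 0.016, interval -0.027 to 0.041, adjusted p = 0.867 by edgeR), so a change of more than 2.9% up or 1.9% down lay outside the interval. Of the 31-base words in its transcripts, 13.97 to 15.03% recur in other genes on the same strand, led by the copies Tdpx-ps1, Prdx2-rs3 and Gm5225. Reads from these copies cannot be fully told apart, and no assigned transcript carried any of their names. Prdx2 also overlaps Junb and Rnaseh2a on the opposite strand, with log2 fold changes of 0.071 and -0.04 (adjusted p by edgeR 0.256 and 0.726).

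Prdx6, which works with a single active cysteine, is reduced through glutathione and also cleaves phospholipids, came nearest to the threshold. Its level was 291.0, 286.2, 293.8, 289.7 and 292.8 CPM in DMSO and 304.2, 308.9, 306.8, 297.4 and 295.9 CPM in BPS. All 5 BPS libraries lay above the highest DMSO library. The means were 290.7 ± 2.99 and 302.6 ± 5.73 CPM (SD, n = 5 each), a difference of 4.1% and a log2 fold change of 0.058 (SE 0.016, interval 0.023 to 0.093). The adjusted p was 0.0616 by edgeR, so the difference did not pass. Its near copy Prdx6b had 0 to 2 counts per library. Prdx6 was the 1 of the 10 genes whose groups did not overlap, and 6.9% of all tested genes did not overlap either (4.19% with BPS higher). It passed with the DESeq2 Wald test (adjusted p = 0.015), with upper-quartile scaling (adjusted p = 0.0444 by edgeR) and without BPS replicate 5 (adjusted p = 0.0469 by edgeR). Over 20 alternatives its adjusted p ran from 0.015 to 0.151.

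Prdx4, the peroxiredoxin of the endoplasmic reticulum, uses peroxide made during disulfide formation to oxidise further protein thiols. Its level was 122.4, 126.3, 123.4, 121.9 and 120.5 CPM in DMSO and 126.2, 123.6, 122.7, 122.8 and 121.8 CPM in BPS. The BPS values all lay within the DMSO range. Its fitted difference was 0.006 on the log2 scale (SE 0.017, interval -0.032 to 0.044, adjusted p = 0.896 by edgeR).

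Prdx3, the peroxiredoxin found in mitochondria alone, did not pass either. It stood at 68.37, 73.79, 70.83, 70.57 and 68.45 CPM in DMSO and at 72.82, 71.55, 72.32, 68.86 and 72.76 CPM in BPS. Both groups covered nearly the same range, and no BPS library lay outside that of DMSO. The fitted difference of 0.026 on the log2 scale was no larger than its error (SE 0.026, interval -0.03 to 0.081, adjusted p = 0.666 by edgeR). None of its 31-base words recurred in another gene, so its counts are free of shared reads by this measure.

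Prdx5, which shares peroxide removal in mitochondria with Prdx3, stood at 80.34, 83.64, 82.29, 84.29 and 81.82 CPM in DMSO. In BPS it stood at 83.91, 84.01, 85.48, 82.78 and 80.68 CPM. BPS replicate 3 was the highest of all, and the other 4 BPS libraries fell within the DMSO range. Between groups it differed by 0.016 on the log2 scale (SE 0.021, interval -0.03 to 0.061, adjusted p = 0.762 by edgeR). The gene overlaps Trmt112 on the opposite strand, and 30.76% of its 31-base words recur there. Trmt112 did not pass, at 0.017 on the log2 scale (adjusted p = 0.789 by edgeR), and whether counting used the strand is not given in the sources used here.

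Txn2, the thioredoxin that reduces Prdx3 in the mitochondrial matrix, had the largest fitted difference of the 10 genes. Its level was 81.7, 85.89, 85.08, 88.71 and 82.63 CPM in DMSO and 88.55, 93.06, 90.03, 85.83 and 89.09 CPM in BPS. Of the 5 BPS libraries, 3 lay above the highest DMSO library and 2 within the DMSO range. The means were 84.8 ± 2.78 and 89.31 ± 2.62 CPM (SD, n = 5 each), 5.3% apart. The log2 fold change of 0.074 (SE 0.027, interval 0.015 to 0.134) had an adjusted p of 0.154 by edgeR and passed under 0 of 20 alternatives, with adjusted p from 0.0946 to 0.292.

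Txnrd2, the selenoprotein that reduces Txn2, was the least abundant of the 10 genes, on 367 to 438 counts per library. It stood at 10.39, 9.438, 11.1, 11.19 and 10.97 CPM in DMSO and at 10.91, 11.37, 10.16, 10.68 and 10.16 CPM in BPS. DMSO replicate 2 was the lowest and BPS replicate 2 the highest, with the groups otherwise mixed. On the log2 scale the difference was 0.005 (SE 0.057, adjusted p = 0.978 by edgeR). Its interval of -7.9% to 9.3% is among the widest, so a change of a few percent in either direction lay within it.

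**Figure D2:**
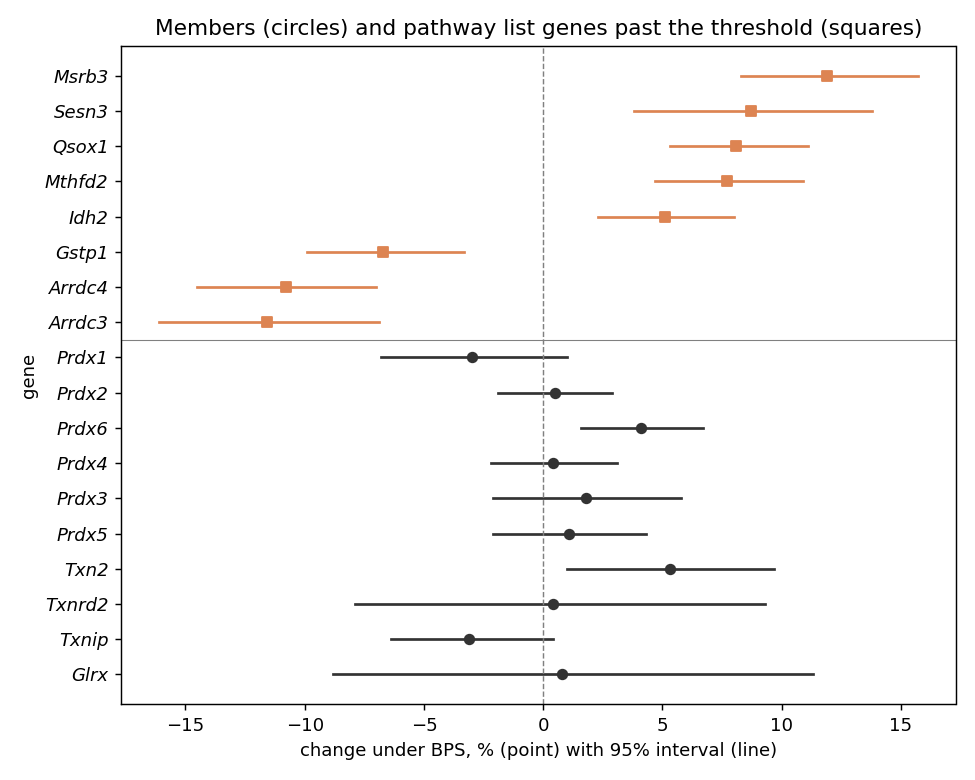
Difference between BPS and DMSO in percent (horizontal axis) for the 10 followed genes (black circles) and the 8 genes of the wider lists that passed the threshold (orange squares), with lines for the unadjusted 95% interval. The interval of Glrx reaches from -8.8 to 11.3%, and those of Prdx6 and Txn2 lie above 0 although neither gene passed after adjustment.

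Txnip, the arrestin-like protein that binds reduced thioredoxin, was an abundant transcript of these cells. Its level was 430.2, 429.1, 452.4, 428.0 and 424.3 CPM in DMSO and 410.4, 405.2, 427.9, 419.9 and 433.7 CPM in BPS. DMSO replicate 3 stood above the other 4 DMSO libraries, 3 BPS libraries lay below every DMSO library, and the groups overlapped. The means were 432.8 ± 11.2 and 419.4 ± 11.9 CPM (SD, n = 5 each). BPS differed from DMSO by a log2 fold change of -0.045 (SE 0.023, interval -0.096 to 0.005, adjusted p = 0.325 by edgeR), and -0.0288 without DMSO replicate 3. It passed under 0 of 20 alternatives. Of the 31-base words of the longer transcript 19.88% recur on the opposite strand, led by the overlapping antisense gene Gm15441, which had 16 to 38 counts per library beside 14106 to 17844 for Txnip.

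Txnip and its relative Arrdc4 are the best known targets of the glucose-sensing factor MondoA (Mlxip) and its partner Mlx, which bind paired E-box-like letters called a carbohydrate response element. Both promoters are shown so that the letters can be compared, each as the 250 bases before the start (RefSeq, GRCm38.p6). Txnip lies at chr3:96557707-96557956 on the plus strand, with capitals on its match to a pair of CACGNG letters 5 bases apart. Arrdc4 lies at chr7:68749239-68749488 on the minus strand, with capitals on its match to the E-box CACGTG.
Txnip: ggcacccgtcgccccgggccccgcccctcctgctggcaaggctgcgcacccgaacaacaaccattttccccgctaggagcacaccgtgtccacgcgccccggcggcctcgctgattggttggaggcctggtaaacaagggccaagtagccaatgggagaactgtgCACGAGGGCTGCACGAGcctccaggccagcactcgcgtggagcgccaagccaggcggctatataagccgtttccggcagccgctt
Arrdc4: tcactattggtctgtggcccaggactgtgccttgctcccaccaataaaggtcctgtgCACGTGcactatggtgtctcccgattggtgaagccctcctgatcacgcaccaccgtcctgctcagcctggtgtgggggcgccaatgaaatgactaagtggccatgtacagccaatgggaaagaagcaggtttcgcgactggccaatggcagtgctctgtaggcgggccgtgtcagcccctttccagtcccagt
The paired letters of Txnip lay 85 to 69 bases before the start and were found in 15 of 32851 promoters (0.046%), searched on both strands, with Txnip the only one of the 9 followed genes with a sequence. The E-box of Arrdc4 lay 193 to 188 bases before the start. E-boxes were found in 6.021% of promoters and in 1 followed gene, Prdx4. The CCAAT box (CCAAT, both strands) was in 33.85% of promoters and in 3 followed genes, Prdx4, Txn2 and Txnip. No match says only that the letters are not in this window.

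Txnip's relatives Arrdc4 and Arrdc3 fell under BPS. Arrdc4 stood at 44.64, 43.82, 45.12, 44.99 and 43.96 CPM in DMSO and at 41.75, 38.26, 38.27, 39.32 and 40.74 CPM in BPS. All BPS values lay below all DMSO values, and the log2 difference was -0.166 (SE 0.028, adjusted p = 0.00675 by edgeR). Arrdc3, an arrestin that acts in receptor trafficking, went from 44.06 ± 0.487 to 38.96 ± 2.15 CPM (SD, n = 5 each), also without overlap, at -0.178 on the log2 scale (SE 0.035, adjusted p = 0.0137 by edgeR). Arrdc3 lost its call in 3 of 20 alternatives, with the replicate block (adjusted p = 0.0504 by edgeR), exact version matching (-0.1344, adjusted p = 0.133) and curated transcripts only (-0.1368, adjusted p = 0.135). Arrdc1 (log2 fold change -0.029, adjusted p = 0.899) and Arrdc2 (0.059, adjusted p = 0.69) did not pass in edgeR. Of the 11 genes listed around Txnip, which also held Mlxip, Mlx, Mlxipl, Slc2a1, Hk2, Itch and Nedd4l, 10 were tested, 0 rose and 2 fell, with a median log2 fold change of 0.005.

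The ratios of both relatives to Txnip are given as a description with no test, since the genes were picked for their fall. The log2 ratio of Arrdc4 to Txnip CPM was -3.281 ± 0.029 in DMSO and -3.403 ± 0.067 in BPS (SD, n = 5 each). For Arrdc3 the ratio was -3.296 ± 0.037 and -3.43 ± 0.066. The groups overlapped in both ratios, with ranges for Arrdc4 of -3.325 to -3.25 in DMSO and -3.483 to -3.297 in BPS.

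**Figure D3:**
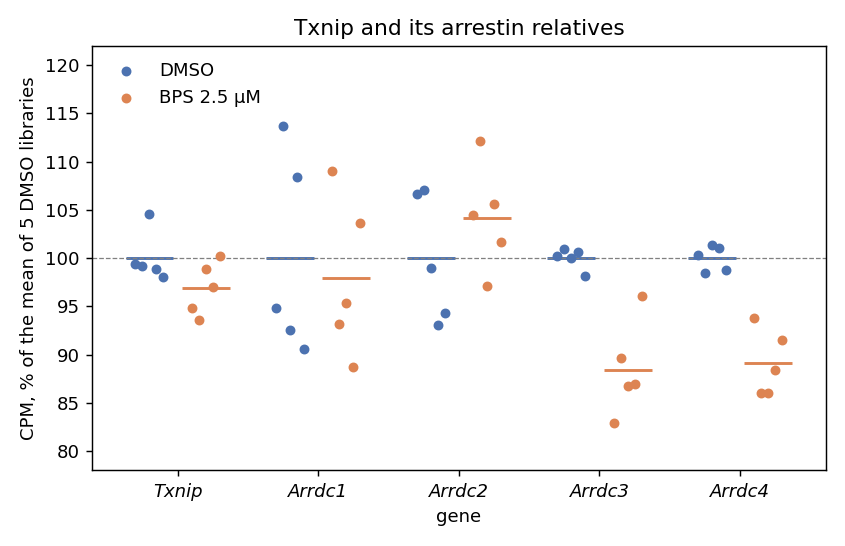
Level of Txnip and its arrestin relatives in each library, as CPM in percent of the mean of the 5 DMSO libraries (vertical axis), with bars at group means (blue DMSO, orange BPS). Arrdc3 and Arrdc4 show no overlap between groups, with fitted differences of -11.6 and -10.8%, while Txnip, Arrdc1 and Arrdc2 overlap.

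Among 9208 other genes with a mean of at least 10 CPM, Herpud2, Smarca2 and Luc7l2 had patterns most like that of Txnip over the 10 libraries. Their root mean square differences from Txnip in centred log2 CPM were 0.0184, 0.0189 and 0.0196, against a median of 0.0689 over those genes. None of the 3 passed, with log2 fold changes of -0.021, -0.023 and -0.021 (adjusted p by edgeR 0.759, 0.599 and 0.68).

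Glrx, the cytosolic glutaredoxin, varied most among replicates, with a coefficient of variation of 8.39% in DMSO and 7.36% in BPS. Its level was 19.04, 15.58, 18.3, 16.85 and 18.91 CPM in DMSO and 19.16, 18.04, 18.63, 17.73 and 15.72 CPM in BPS. DMSO replicate 2 and BPS replicate 5 were the lowest, and the groups covered nearly the same range. Glrx differed by 0.011 on the log2 scale (SE 0.066, interval -0.133 to 0.155, adjusted p = 0.956 by edgeR). Its counts were 568 to 764 per library, and in percent the interval ran from -8.8 to 11.3%. Glrx2, with 661 to 794 counts per library, had an SE of 0.032.

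Per transcript length the 10 genes spanned a wide range of levels, in the same order in both groups except that Txn2 stood above Prdx5 in the BPS means. The measure was CPM per kilobase, with lengths from GENCODE M21 transcripts matched by accession. Prdx1 led with 283.0 ± 4.77 in DMSO, followed by Txnip with 154.0 ± 3.97, Prdx2 with 139.0 ± 2.1, Prdx6 with 129.0 ± 2.31 and Prdx4 with 121.0 ± 2.12 CPM per kilobase (SD, n = 5 each). The mitochondrial genes were lower, with Prdx5 at 65.4 ± 1.23, Txn2 at 65.3 ± 2.14 and Prdx3 at 47.6 ± 1.5 CPM per kilobase. Glrx stood at 13.2 ± 1.11 and Txnrd2 at 5.57 ± 0.38 CPM per kilobase. Neighbours in this order overlapped over the 10 libraries only for Prdx5 with Txn2. Prdx2 and Prdx6 came close, with a lowest Prdx2 value of 136.8 and a highest Prdx6 value of 136.6 CPM per kilobase. The order rests on 1 length per transcript, and for Prdx4 only 1 of 3 transcripts, with 97.5% of the counts, had one.

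**Figure D4:**
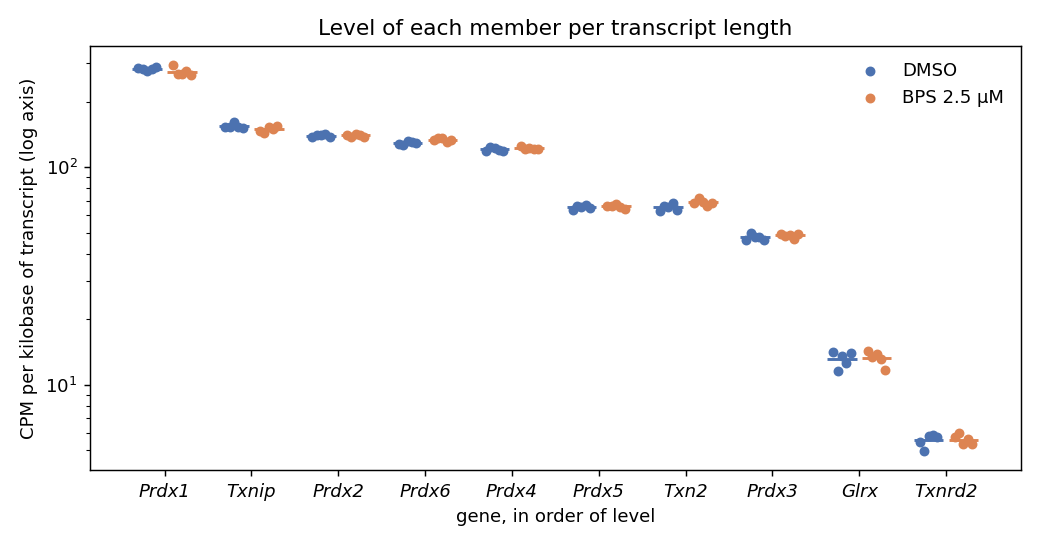
Level of each followed gene in CPM per kilobase of transcript (vertical log axis), 1 point per library and a bar at each group mean (blue DMSO, orange BPS), genes in order of their DMSO mean. Prdx1 leads at 283.0 and Txnrd2 is lowest at 5.57 CPM per kilobase in DMSO, and each gene's BPS points lie at the level of its DMSO points.

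Prdx2 and Txnip each had 2 transcripts with at least 5% of the gene's counts, and their shares did not differ between groups beyond the spread. The shorter Prdx2 transcript held 45.69 ± 2.56% of the counts in DMSO and 46.07 ± 3.83% in BPS (SD, n = 5 each; exact two-sided permutation test, p = 0.873, adjusted over 2 tests 0.873). The shorter Txnip transcript held 35.41 ± 1.76% and 35.12 ± 0.57% (exact permutation p = 0.698, adjusted 0.873). These splits rest on few distinguishing bases, since 1.84% of the 31-base words of the shorter Prdx2 transcript and 0.98% of those of the shorter Txnip transcript are absent from the sister transcript. In Prdx6, 95.48% of the counts fell on 1 transcript, and in Prdx4 97.54%. Prdx1, Prdx3, Prdx5, Txn2, Txnrd2 and Glrx each had counts on 1 transcript only. Of 16 transcripts of the 10 genes tested singly, 0 passed.

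**Figure D5:**
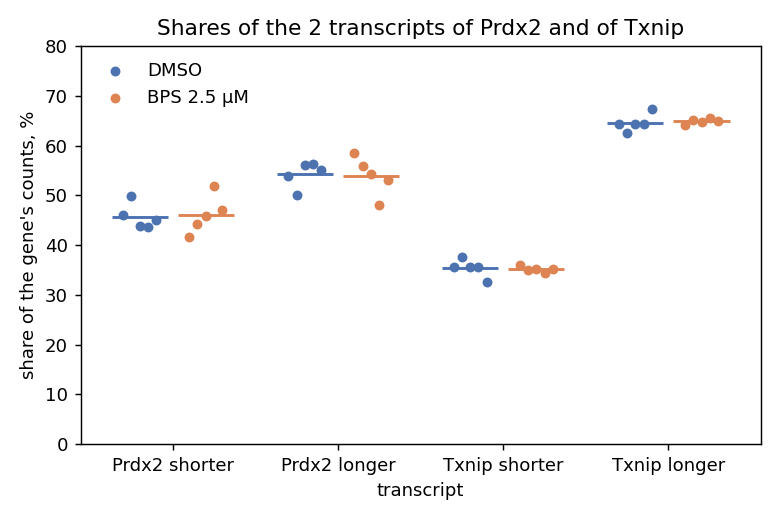
Share of a gene's counts on each of the 2 transcripts of Prdx2 and of Txnip (vertical axis, percent), 1 point per library and a bar at each group mean (blue DMSO, orange BPS). The shorter transcript holds 41.53 to 51.85% for Prdx2 and 32.67 to 37.58% for Txnip over the 10 libraries, and the groups overlap.

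Genes that work beside the 10 were read from 9 lists with 61 genes, of which 59 were tested. Of these, 5 rose and 3 fell, or 13.6%, with 4.88% called among all tested genes. The median log2 fold change was 0.008 and the median absolute value 0.034. The lists were chosen with earlier results of these data known. They were also not matched for level with all tested genes, which include genes with few counts. The 2 shares are therefore a description and not a test of the lists. Besides Arrdc3 and Arrdc4, the called genes were Msrb3, Mthfd2, Qsox1, Gstp1, Idh2 and Sesn3. Without BPS replicate 1 the count was also 8, with Srxn1 called and Idh2 not.

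The cytosolic thioredoxin branch showed 0 called genes of 7 tested. Txn1, the cytosolic thioredoxin, stood at 293.0 ± 3.6 and 292.0 ± 7.79 CPM, and its reductase Txnrd1, an NRF2 target, at 257.2 ± 10.4 and 250.5 ± 6.39 CPM (SD, n = 5 each; adjusted p by edgeR 0.926 and 0.525). Among the 5 genes of peroxiredoxin repair and the sestrins, 1 rose and 1 fell. Gstp1, the transferase that recharges Prdx6 with glutathione, fell from 237.8 ± 5.45 to 221.9 ± 6.62 CPM (-0.099 on the log2 scale, SE 0.023, adjusted p = 0.0317 by edgeR). Sesn3, a stress-inducible sestrin, rose from 51.41 ± 2.17 to 55.88 ± 1.39 CPM (0.12 on the log2 scale, SE 0.031, adjusted p = 0.0463 by edgeR). Srxn1, the sulfiredoxin that repairs overoxidised peroxiredoxins, stood at 92.69 ± 3.11 and 86.59 ± 4.34 CPM and did not pass (adjusted p = 0.146 by edgeR). The groups of Gstp1 and of Sesn3 overlapped. Gstp1 lost its call in 8 of 20 alternatives and Sesn3 in 14.

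In the list for mitochondrial NADPH supply, on which Txnrd2 depends, 2 of 8 genes rose and 0 fell, with 4.88% called among all tested genes. NADPH itself was not measured. Mthfd2, of the mitochondrial folate pathway, stood at 144.3 to 150.9 CPM in DMSO and 155.1 to 163.8 CPM in BPS, without overlap (0.107 on the log2 scale, SE 0.019, adjusted p = 0.00854 by edgeR). Idh2, the NADP-linked isocitrate dehydrogenase, rose from 148.0 ± 2.81 to 155.5 ± 2.41 CPM (SD, n = 5 each; 0.072 on the log2 scale, SE 0.018, adjusted p = 0.0431 by edgeR), a call lost in 15 of 20 alternatives. Nadk2, the mitochondrial NAD kinase, stood at 28.12 to 31.11 CPM in DMSO and lower, at 24.8 to 27.76 CPM, in BPS without overlap, but did not pass (-0.129 on the log2 scale, SE 0.039, adjusted p = 0.0869 by edgeR). Nnt, the transhydrogenase of the inner membrane, had a log2 fold change of 0.006 (adjusted p = 0.936 by edgeR).

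Msrb3, the only gene called of 4 methionine sulfoxide reductases, showed the largest rise among the called genes of the lists. It stood at 158.0, 162.1, 164.7, 157.1 and 158.9 CPM in DMSO and at 174.5, 185.6, 179.2, 174.5 and 182.7 CPM in BPS. All BPS values lay above all DMSO values, 0.163 apart on the log2 scale (SE 0.022, adjusted p = 0.00158 by edgeR). Of 14 genes of oxidative folding in the endoplasmic reticulum, where Prdx4 works, 1 rose and 0 fell. That gene, the sulfhydryl oxidase Qsox1, stood at 233.2 ± 2.54 and 252.2 ± 5.69 CPM (SD, n = 5 each; 0.113 on the log2 scale, SE 0.018, adjusted p = 0.00401 by edgeR). Ero1a, the oxidase that makes peroxide there, had a log2 fold change of 0.026 (adjusted p = 0.81 by edgeR). The other glutaredoxins (3 genes), selenoprotein synthesis (6) and the thioredoxin-bound kinases Map3k5 and Map3k6 had 0 calls. Glrx3, singled out after its values were seen, had the largest log2 fold change of the lists, 0.399 (SE 0.13), without passing (adjusted p = 0.111 by edgeR).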

How the data were processed

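The deposited table gives estimated counts of 107384 transcripts in each library, which the authors made with kallisto 0.42.4 per the submitters' processing notes. The index, genome build and strand setting are not given in the sources used here. Per the labels' protocols the library kit was directional. Accessions were matched without version to a RefSeq table of GRCm38.p6, which placed 86722 transcripts (93.1% of counts) in 32903 genes. The other 6.9% of counts stayed out. Sums per gene were rounded, filtered with filterByExpr (14597 genes) and scaled by TMM factors of 0.9854 to 1.0077.

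The 2 groups were compared in edgeR (quasi-likelihood test, no covariates), and p-values were adjusted by the Benjamini-Hochberg method. The SE is the size of the log2 fold change over the square root of F, and intervals use the test's degrees of freedom. CPM uses the TMM-scaled library size. Between replicates of a group the chi-square of counts, divided by its degrees of freedom, was 4.13 to 8.77 (genes with at least 20 counts), so each library counted as 1 replicate. The code was tested on simulated counts with seeded changes.

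Members and lists were chosen with earlier results of these data known. All 10 members are named, and of each list up to 5 called genes with the smallest p; similarity to Txnip was over genes of at least 10 CPM. Outside that rule, Txn1, Txnrd1, Srxn1, Nnt, Nadk2, Ero1a, Arrdc1, Arrdc2, Glrx2 and Glrx3, none of them called, were named after their values were seen. Alternatives were 3 scalings, 2 filters (none, and a CPM of at least 1 in at least 5 libraries), limma-voom, a Wald test in DESeq2, the replicate number as a block, exact version matching, curated transcripts, unsummed transcripts and each library left out. Counts of alternatives given for single genes leave out the unsummed transcripts. Tools were edgeR 4.0.16, DESeq2 1.42.0 and limma 3.58.1 in R 4.3.3, and Python 3.11.15 with pandas 2.3.3, numpy 2.4.6, scipy 1.17.1 and matplotlib 3.10.9. Some items are not reported here.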

Additional observations from a re-analysis of the deposited data

Results flagged for a closer look

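Of 44 groups of 5 values examined, 1 had a library that stood apart from its group by Dixon's criterion at the 95% level, and chance alone flags about 1 in 20 groups. Txnip had 452.4 CPM in DMSO replicate 3 and 424.3 to 430.2 CPM in the other 4 DMSO libraries. Without that library its log2 fold change was -0.0288 in place of -0.045, and it passed the threshold in neither.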

How the results depend on the processing

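Of 199 recomputed log2 fold changes of the 10 members, 180 kept their direction and their side of the threshold, 4 passed it and 15 changed sign, all close to 0. With library size alone the sign changed for Prdx2 (-0.0078), Prdx4 (-0.0084), Txnrd2 (-0.0099) and Glrx (-0.0038), and with curated transcripts only for Txnrd2 (-0.0015). With 1 library left out the values ran from -0.0019 to 0.0164 for Prdx4, from -0.0348 to 0.0234 for Txnrd2 and from -0.0326 to 0.0533 for Glrx. Prdx5 could not be tested with exact version matching. The number of members called was 1 with upper-quartile scaling, 1 with the DESeq2 Wald test and 0 to 1 with 1 library left out, and 0 under the others.

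The number of called list genes, 8, was 4 with the replicate block, 5 with exact version matching, 5 with curated transcripts only, 1 with unsummed transcripts and 5 to 8 with 1 library left out. All 20 alternatives with counts summed per gene kept the calls of Msrb3, Arrdc4, Mthfd2 and Qsox1, and Arrdc3 lost its call in 3. With unsummed transcripts Mthfd2 was the only list gene called. The count over all genes, 712, was 374 with the replicate block, 328 with exact version matching, 311 with curated transcripts only and 119 with unsummed transcripts. It was 449 to 774 with 1 library left out, with 449 when DMSO replicate 2 and 774 when BPS replicate 1 was omitted. Omitting BPS replicate 2, 3 or 4 left 462, 465 or 462 genes. Higher genes were 62.8% of the calls, and 45.9% with library size alone. The cause of these changes between settings was not tested. Same-numbered libraries deviated together with correlations of 0.1, 0.004, -0.067, 0.072 and -0.078. For numbers 1 and 4 the best match in the other group was the library of the same number, seen from either group. For numbers 2, 3 and 5 it was so from neither group. Correlations this weak cannot decide whether the numbers pair libraries. Under the block no member was called. Intervals were widest for Txnrd2 and Glrx, whose counts were 367 to 438 and 568 to 764 per library. What part depth had in that width was not tested.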

Other observations

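BPS replicate 1 had the highest value of the 5 BPS libraries in 5 of the 10 followed genes, Prdx1 (673.8 CPM), Prdx2 (220.5 CPM), Prdx3 (72.82 CPM), Prdx4 (126.2 CPM) and Glrx (19.16 CPM). Among other genes of the lists the same held for Txn1, Srxn1, Gstp1, Arrdc4 and Glrx2, looked up after the values were seen. It did not hold for Txnrd1, Mthfd2, Msrb3 and Qsox1, among others. In Arrdc3 (36.51 CPM), Nadk2 (24.8 CPM) and Ero1a (253.3 CPM) BPS replicate 1 was the lowest BPS library. The share over all genes was not computed. The other BPS libraries spanned 608.7 to 634.4 CPM in Prdx1. Without BPS replicate 1, Prdx1 and Srxn1 passed the threshold, at log2 fold changes of -0.0696 and -0.1273 (adjusted p by edgeR 0.0474 and 0.029). Of 19 alternatives that could be run, Glrx3 passed under 1, the DESeq2 Wald test (adjusted p = 0.0453).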
